A study of Homo sapiens with 4 samples.

Results

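Antisense and divergent noncoding RNA genes are long noncoding RNA (lncRNA) genes named after a protein-coding neighbour. A symbol ending in -AS1, -AS2 or -AS3 marks a gene transcribed from the strand opposite to that neighbour, and a symbol ending in -DT marks a transcript that leaves the neighbour's promoter in the opposite direction. The splicing event lists of 4 long-read libraries held events of 243 such genes, out of 11931 Ensembl genes with at least 1 event. Of these, 175 had an -AS suffix (168 -AS1, 5 -AS2 and 2 -AS3) and 68 had the suffix -DT. They were selected by symbol and lncRNA class alone, after each Ensembl identifier had been matched by hg38 position and strand to the RefSeq gene table of GRCh38.p14, which named 10736 of the 11931 genes (90.0%). The other 295 lncRNA genes and the 10031 protein-coding genes named in the same way served for comparison.

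The libraries were made from Huh7, an established human hepatocellular carcinoma line, after transfection with a negative control siRNA (siNC, 2 libraries) or an siRNA against STAMBPL1 (siSTAMBPL1, 2 libraries). STAMBPL1 encodes a deubiquitinase. The cells carried no other stated modification, no time after transfection or siRNA sequence is given here, and nothing states that the libraries of a group came from separate cultures. The comparison asks what the siRNA against STAMBPL1 changes in the transcripts of these cells.

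Most human promoters start transcription in both directions. The upstream RNA is usually short and is removed by the nuclear exosome after early termination, while a minority of these RNAs are spliced, polyadenylated and stable, and the -DT genes are annotated from such cases. Antisense RNAs can start inside or beyond their partner gene and overlap its exons or introns, and some are known to act on the partner's chromatin or RNA. Most have no known function.

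Each deposited list gives splicing events of 1 library. An event is a pair of alternative forms, with the transcripts that carry them. The 7 types are first exons, last exons and 3′ or 5′ splice sites used in place of one another, exons skipped, introns retained, and exons that exclude each other. A transcript is an Ensembl transcript or a PB transcript, the latter being a transcript that the authors built from the long reads. The lists hold no read numbers, so an event is present or absent, how many events a gene has says nothing of its expression level, and the sequencing depth is unknown. In all, the lists held 140317 and 142215 events in the siNC libraries, against 119505 and 94432 in the siSTAMBPL1 libraries, with 32307, 32750, 25463 and 17584 PB transcripts in the same order. The siSTAMBPL1 libraries thus stood below the siNC libraries in both totals, and what part the size of a list had in the differences between groups was not tested. STAMBPL1 itself had 3 and 6 events in the siNC libraries, against 1 event in each siSTAMBPL1 library. Of 25 hepatocyte and hepatoma markers, 6 had events, 22 and 34 over the list in the siNC libraries, against 25 and 32 in the siSTAMBPL1 libraries. Much of this came from KRT8, a keratin gene of epithelia in general, with 9, 10, 16 and 22 events. HNF4A, a hepatocyte transcription factor gene, had 8, 6, 0 and 4, and the fibrinogen gene FGG had 5 events in siSTAMBPL1 replicate 1 alone. None of 5 blood markers had an event, while 2 of 3 endothelial markers (VWF and CDH5) had 4 and 6 events in the siNC libraries, against 0 in both siSTAMBPL1 libraries. Of 5 stellate or fibroblast markers only PDGFRB had events, 0 and 4 in the siNC libraries, against 5 in each siSTAMBPL1 library. A marker with no event has no level here, so the cell type label could not be checked further.

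The start regions of 5 genes are shown because the values of the genes named by the selection, SLC12A2-DT (ENSG00000245937) and OR2A1-AS1 (ENSG00000244479), and of a second pair of similar genes, have to be read against them. Each runs from 250 bases before the RefSeq start site to 50 bases after it, 5′ to 3′ on the gene's own strand, with the 50 bases from the start site onward in capitals (RefSeq, GRCh38.p14). SLC12A2-DT lies at chr5:128083126-128083425 (minus strand) and its partner SLC12A2 at chr5:128083516-128083815 (plus strand). OR2A1-AS1 lies at chr7:144355669-144355968 (minus strand). NUTM2A-AS1 lies at chr10:87342509-87342808 and NUTM2B-AS1 at chr10:79826545-79826844, both on the minus strand.
SLC12A2-DT: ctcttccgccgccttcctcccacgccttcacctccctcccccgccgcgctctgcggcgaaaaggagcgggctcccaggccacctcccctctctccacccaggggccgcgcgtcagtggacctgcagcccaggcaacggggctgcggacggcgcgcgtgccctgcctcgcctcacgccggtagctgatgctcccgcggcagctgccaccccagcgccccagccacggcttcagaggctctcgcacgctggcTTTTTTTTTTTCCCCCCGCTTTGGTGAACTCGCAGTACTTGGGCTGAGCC
SLC12A2: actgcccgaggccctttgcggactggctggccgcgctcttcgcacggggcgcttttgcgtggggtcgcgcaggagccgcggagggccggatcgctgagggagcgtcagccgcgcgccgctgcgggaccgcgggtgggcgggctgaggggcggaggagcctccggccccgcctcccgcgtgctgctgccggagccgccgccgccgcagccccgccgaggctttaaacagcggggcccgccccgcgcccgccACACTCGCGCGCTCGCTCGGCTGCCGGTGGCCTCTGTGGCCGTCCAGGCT
OR2A1-AS1: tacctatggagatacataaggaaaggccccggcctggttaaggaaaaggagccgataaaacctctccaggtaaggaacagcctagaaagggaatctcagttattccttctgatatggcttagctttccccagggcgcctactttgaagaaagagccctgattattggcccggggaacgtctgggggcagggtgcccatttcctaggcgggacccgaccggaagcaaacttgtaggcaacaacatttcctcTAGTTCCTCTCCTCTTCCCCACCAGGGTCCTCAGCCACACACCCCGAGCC
NUTM2A-AS1: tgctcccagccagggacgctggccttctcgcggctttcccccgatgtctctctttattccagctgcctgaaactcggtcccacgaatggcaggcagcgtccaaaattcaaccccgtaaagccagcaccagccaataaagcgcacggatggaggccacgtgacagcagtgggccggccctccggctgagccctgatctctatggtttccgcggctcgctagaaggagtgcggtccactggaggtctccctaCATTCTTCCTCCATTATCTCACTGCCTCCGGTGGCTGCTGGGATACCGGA
NUTM2B-AS1: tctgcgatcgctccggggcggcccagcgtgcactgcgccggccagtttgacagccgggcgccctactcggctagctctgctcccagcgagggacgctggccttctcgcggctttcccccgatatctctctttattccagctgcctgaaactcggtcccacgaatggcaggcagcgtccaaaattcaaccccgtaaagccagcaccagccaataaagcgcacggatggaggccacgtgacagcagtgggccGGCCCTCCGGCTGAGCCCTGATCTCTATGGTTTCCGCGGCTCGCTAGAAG
The start of SLC12A2-DT lies 591 bases upstream of that of SLC12A2, which encodes the sodium, potassium and chloride cotransporter NKCC1, and the RNA runs away from it. The start region of ARHGEF35-AS1, at chr7:144195071-144195370 on the plus strand, is identical to that of OR2A1-AS1 at 300 of 300 positions, so it is not printed again. The NUTM2A-AS1 and NUTM2B-AS1 start regions share an unbroken run of 177 bases that stands at different distances from the 2 annotated starts. Long reads from such near-identical copies can be assigned to either copy, and the values of these 4 genes are uncertain in that respect.

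The 2 kinds of gene differed in where they start, as their naming implies. Where both starts and strands were known, 43 of 55 -DT genes started between 0 and 1000 bases upstream of their partner, with a median distance of 126 bases, and 10 of the 55 (18.2%) overlapped the partner's span. Of 121 -AS genes, 17 started in that upstream window, 73 started more than 1000 bases downstream of the partner's start, and 99 (81.8%) overlapped the partner's span. The partner was itself in the event lists for 120 of the 175 -AS genes and for 63 of the 68 -DT genes.

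**Figure D1:**
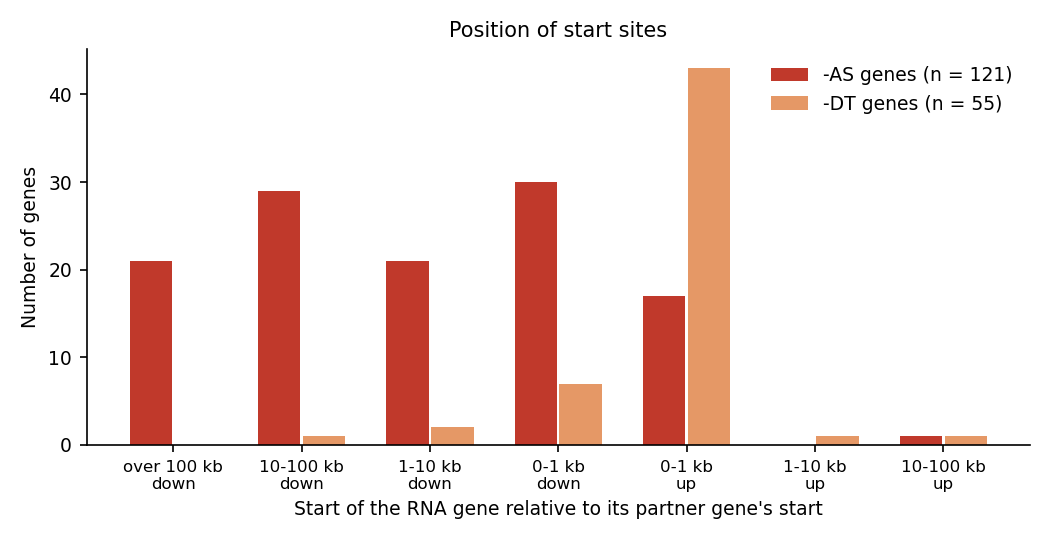
Number of genes (vertical axis) by the distance of the RNA gene's start from its partner's start (horizontal axis, bins in kilobases, up meaning upstream of the partner), for 121 -AS genes and 55 -DT genes. The -DT genes are concentrated in the first kilobase upstream (43 of 55), and 73 of the 121 -AS genes start more than 1 kilobase downstream.

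The start regions of these genes had a base composition near that of the protein-coding genes in the lists. The median GC content was 69.0% in 57 -DT genes and 64.3% in 148 -AS genes, against 65.7% in 8331 protein-coding genes, 61.0% in 221 other lncRNA genes and 58.3% over all 27305 start regions of the table. The median ratio of observed to expected CpG was 0.904 in -DT genes and 0.791 in -AS genes, against 0.850 in protein-coding genes and 0.667 in other lncRNA genes. The GC box letters GGGCGG, searched on both strands, occurred in 70.2% of -DT and 62.8% of -AS start regions, against 71.6% in protein-coding genes, 55.7% in other lncRNA genes and 44.6% of all start regions. The TATA box letters TATAAA, searched in the same way and unable to overlap the GC box letters, occurred in 7.02% and 5.41%, against 4.81% in protein-coding genes, 8.60% in other lncRNA genes and 12.0% of all. These shares describe the windows and were not tested.

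The antisense and divergent RNA genes had 852 and 991 events in the siNC libraries, against 848 and 748 in the siSTAMBPL1 libraries. The mean was 922 ± 98.3 (SD, n = 2) after siNC and 798 ± 70.7 (SD, n = 2) in siSTAMBPL1, a ratio of 0.866. The lowest siNC library stood 4 events above the highest siSTAMBPL1 library, so the groups did not overlap but were nearly in contact. The exact permutation test gave p = 0.33, two-sided, which is the smallest that 2 libraries against 2 can give. Without SLC9A3-AS1, the gene with the most events, the numbers were 791, 923, 803 and 701, and the groups overlapped. Over all genes the ratio was 0.757, and over the other lncRNA genes it was 0.751. As a share of all listed events, those of the antisense and divergent RNA genes made up 0.607% and 0.697% after siNC and 0.710% and 0.792% after siSTAMBPL1, so dividing by the library's total turned the direction (exact permutation p = 0.33). The p-values here measure only the spread between these libraries, which may be technical.

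The number of these genes with at least 1 event was 138 and 144 in the siNC libraries, against 126 and 113 in the siSTAMBPL1 libraries. This was 56.8% and 59.3% of the 243 after siNC and 51.9% and 46.5% after siSTAMBPL1. The groups did not overlap (exact permutation p = 0.33). Genes with at least 2 events averaged 106.5 after siNC against 102 after siSTAMBPL1, and there the groups overlapped. For all genes, the shares listed were 86.4%, 87.3%, 82.8% and 75.9% in the same order of libraries.

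Most of these genes came and went between libraries. Of the 243, 97 (39.9%) had events in 1 library, 64 in 2, 32 in 3 and 50 (20.6%) in all 4. Presence in all 4 was 25.7% for -AS genes and 7.35% for -DT genes, against 26.1% for other lncRNA genes and 73.7% for protein-coding genes. Of the genes listed in exactly 2 libraries, 15 were in both siNC libraries, 5 were in both siSTAMBPL1 libraries, and the 4 mixed pairs held 15, 9, 10 and 10. A mixed pair thus held as many genes as the siNC pair.

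**Figure D2:**
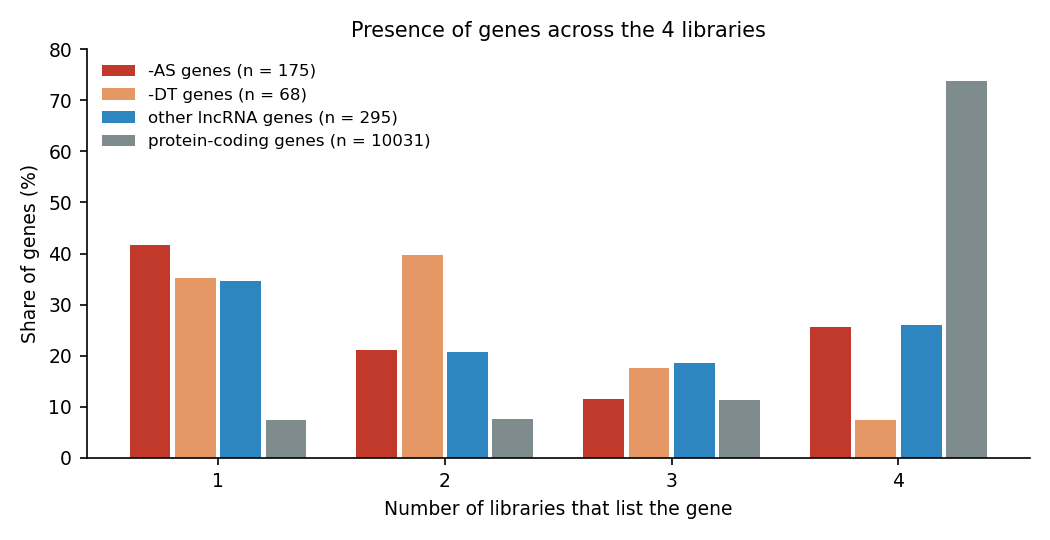
Share of genes (vertical axis, percent) by the number of the 4 libraries that list at least 1 event (horizontal axis), for -AS, -DT, other lncRNA and protein-coding genes. Presence in all 4 libraries was 73.7% for protein-coding genes, 25.7% for -AS genes and 7.35% for -DT genes.

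Single events were shared less still. The genes had 2286 distinct events, of which 71.1% were listed in 1 library and 167 (7.31%) in all 4. The share in all 4 libraries was 7.38% for other lncRNA genes and, over all genes, 46136 of 287868 distinct events were in all 4. Events listed in both siNC libraries alone numbered 65 and those in both siSTAMBPL1 libraries alone 38, while the 4 mixed pairs had 71, 32, 51 and 77. At least 1 event in all 4 libraries was found in 38 of the 243 genes. The events were also concentrated in few genes, since 8 genes held 24.2% of the distinct events and 44 genes had only 1.

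Alternative last exons were the most frequent type in each library when the events of all these genes were pooled. They made up 25.5% and 26.9% of the events after siNC and 25.8% and 27.9% after siSTAMBPL1. Alternative first exons followed with 24.1% and 24.5% after siNC and 23.6% and 21.9% after siSTAMBPL1, and skipped exons with 19.7%, 19.8%, 19.0% and 21.1%. In protein-coding genes the order was different, with first exons at 40.2% and last exons at 5.89% on average over the libraries. The lead of last exons did not hold in each kind of gene. In -AS genes first exons led in siNC replicate 2 (28.2% against 24.6%) and siSTAMBPL1 replicate 1 (26.4% against 24.5%). In -DT genes skipped exons led in siNC replicate 1 (24.8% against 22.4%).

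The share of last exon events was higher than in other lncRNA genes in 4 of 4 libraries, by 8.59 ± 1.68 percentage points (SD, n = 4), and higher than in protein-coding genes by 20.7 ± 1.34 points (SD, n = 4). The first exon share was lower by 8.08 ± 1.92 points than in other lncRNA genes and by 16.7 ± 0.791 points than in protein-coding genes, again in 4 of 4 libraries (SD, n = 4). For each of these the exact sign-flip test gave p = 0.125, the smallest that 4 libraries allow, and an adjusted p = 0.154 over 16 such comparisons by Benjamini-Hochberg. No comparison of this kind could therefore have passed a threshold of 0.05.

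The last exon difference was also present when each gene was weighted equally, whatever its number of events. The mean share over genes was then 24.0% and 24.4% after siNC and 19.5% and 23.5% after siSTAMBPL1, against 16.6% to 17.6% for other lncRNA genes and 4.99% to 5.53% for protein-coding genes. By this weighting skipped exons (25.1%) and 5′ splice sites (19.8%) stood above last exons in siSTAMBPL1 replicate 1. The first exon difference from other lncRNA genes turned, with 16.7% to 19.5% in the antisense and divergent RNA genes against 15.3% to 17.0%. In -DT genes first exons made up 16.4% and 9.64% of events after siNC and 12.9% and 5.76% after siSTAMBPL1, and in -AS genes 25.9%, 28.2%, 26.4% and 25.6%.

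Retained introns made up 6.10% and 5.75% of the events after siNC and 5.42% and 4.28% after siSTAMBPL1. SLC9A3-AS1 alone held 35 of 52 and 35 of 57 of them after siNC and 23 of 46 and 18 of 32 after siSTAMBPL1. Without this gene the retained intron share was 2.27 ± 0.166% after siNC and 2.43 ± 0.613% after siSTAMBPL1 (SD, n = 2 each), and the groups overlapped. The skipped exons of these genes had a median length of 121 bases, close to the 116 bases in protein-coding genes, and 123 in other lncRNA genes. Their 109 distinct retained introns, 56 of them in SLC9A3-AS1, had a median of 560 bases, against 562.5 in other lncRNA genes and 329 in protein-coding genes.

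Between siNC and siSTAMBPL1, the first exon share was 24.3 ± 0.325% and 22.8 ± 1.17% (SD, n = 2 each), a difference of -1.54 percentage points with no overlap (exact permutation p = 0.33). It was -2.76 points over all genes, also with no overlap, and 0.0573 points in other lncRNA genes. Over events listed in at least 2 libraries it was -0.307 points. The last exon share was 26.2 ± 1.04% and 26.9 ± 1.496% (SD, n = 2 each), and the groups overlapped (exact permutation p = 0.667).

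**Figure D3:**
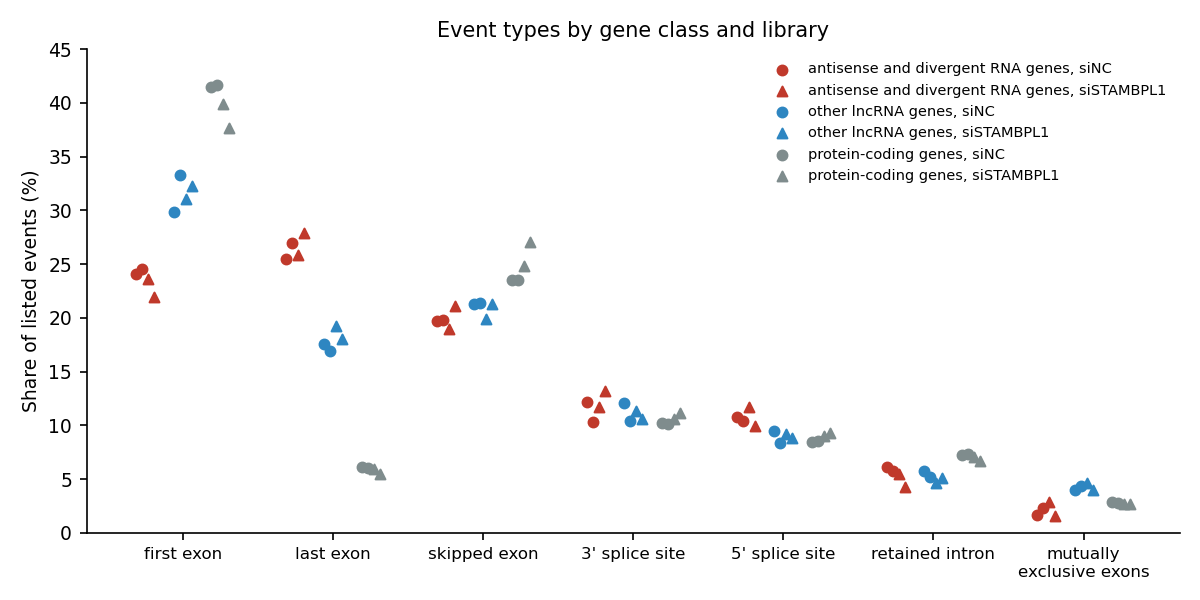
Share of listed events (vertical axis, percent) of each of the 7 event types (horizontal axis) in the antisense and divergent RNA genes, other lncRNA genes and protein-coding genes, 1 point per library (circles siNC, triangles siSTAMBPL1). The last exon share lies between 25.5% and 27.9% in the antisense and divergent RNA genes and between 5.51% and 6.08% in protein-coding genes.

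An event holds a PB transcript when at least 1 transcript the authors built from that library's reads carries it. This was so for 51.8% (exact 95% binomial interval 48.3% to 55.2%) and 57.5% (54.4% to 60.6%) of the events in siNC, and for 54.2% (50.8% to 57.6%) and 50.1% (46.5% to 53.8%) in siSTAMBPL1. The intervals treat events as independent, while 1 transcript can carry many, so they are too narrow. The groups overlapped, with means of 54.6 ± 4.07% and 52.2 ± 2.91% (SD, n = 2 each, exact permutation p = 0.667). Over events listed in at least 2 libraries the means were 33.9% and 33.1%. Over all genes the share was 76.9% and 77.0% after siNC and 73.8% and 68.9% after siSTAMBPL1.

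The share was below that of other lncRNA genes in 4 of 4 libraries, by 8.07 ± 4.34 points, and below that of protein-coding genes by 21.3 ± 3.06 points (SD, n = 4, exact sign-flip p = 0.125, adjusted p = 0.154). In -AS genes alone it was 60.6% in siNC replicate 2, above the 60.0% of other lncRNA genes there, and below their share in the remaining libraries. In -DT genes it ranged from 33.1% in siSTAMBPL1 replicate 2 to 58.2% in siNC replicate 1. Counted per gene, a PB transcript was present in 78 of 138 and 76 of 144 listed genes in siNC and in 70 of 126 and 63 of 113 after siSTAMBPL1. These were 52.8% to 56.5% of the genes listed, against 61.8% to 67.3% of other lncRNA genes. Only 12 of the 243 genes had a PB transcript in every library, and 76 had none in any. An Ensembl transcript on a list may also have been read, so a gene without a PB transcript may still have been detected.

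Few transcripts were needed to account for these events. Counting the PB transcripts of a gene and the fewest Ensembl transcripts that could account for its other events, 1 transcript was enough for 90 of 138 and 93 of 144 listed genes in siNC and for 87 of 126 and 75 of 113 after siSTAMBPL1. These were 64.6% to 69.0% of the genes listed, and the median was 1 in every library. The most events for which 1 transcript was enough were 14 in TPT1-AS1 (siNC replicate 1), 31 in NR2F1-AS1 (siNC replicate 2), 11 in THUMPD3-AS1 (siSTAMBPL1 replicate 1) and 25 in SLC12A2-DT (siSTAMBPL1 replicate 2). The measure is a lower limit, so more transcripts may have been present. Up to 31 events of a gene in a library could thus be accounted for by 1 transcript. How many transcripts stood behind any difference between libraries was not tested. This measure, and the genes it names, were chosen after the values were seen.

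**Figure D4:**
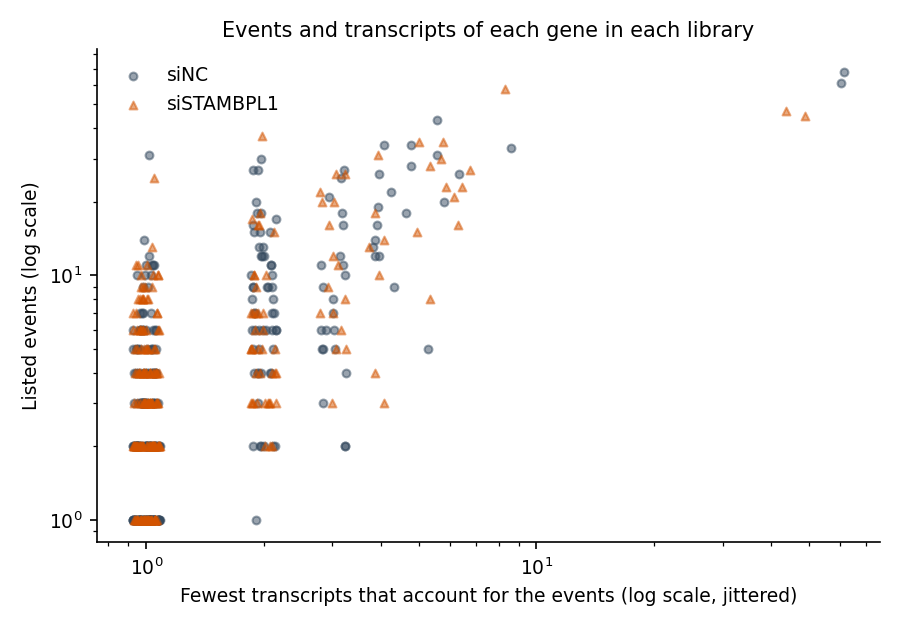
Listed events of each antisense or divergent RNA gene in a library (vertical axis, log scale) against the fewest transcripts that account for them (horizontal axis, log scale, points moved slightly sideways at random so that they can be told apart), in siNC (circles) and siSTAMBPL1 (triangles). Most points stand at 1 transcript, where the numbers of events reach 31, and the 4 points at the far right (46 to 60 transcripts) are SLC9A3-AS1.

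SLC12A2-DT had 0 and 27 events in the siNC libraries, against 37 and 25 in the siSTAMBPL1 libraries. The absence was thus in 1 control library, and the groups overlapped. PB transcripts numbered 0, 1, 1 and 0, and the fewest transcripts that account for the events were 0, 2, 2 and 1. Of its 63 distinct events, 36 were in siSTAMBPL1 replicate 1 alone, 24 in siNC replicate 2 and siSTAMBPL1 replicate 2 alone, 2 in siNC replicate 2 alone, and 1 in these 3 libraries. The set that was shared crossed the groups. Last exons made up 41 of the 63 and skipped exons 12. The gene spans chr5:127940440-128083175, and no gene in the lists was named SLC12A2, so the partner cannot be set beside it.

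The fitted log2 difference of SLC12A2-DT was 2.88 ± 1.62 (SE, n = 2 per group) on the scale of log2(events + 1) scaled by library, with an adjusted p = 0.765 by limma. Without siNC replicate 1 it was 0.57, and without siNC replicate 2 it was 5.12, so 1 control library decided it. SLC12A2-DT and OR2A1-AS1 were singled out by an earlier ranking of change in these data, and their differences are descriptions only.

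OR2A1-AS1, which spans chr7:144238573-144355718 and overlaps the olfactory receptor gene OR2A1 on the other strand, had 7 and 0 events after siNC and 20 and 18 after siSTAMBPL1. Both siSTAMBPL1 libraries stood above both siNC libraries. PB transcripts numbered 1 and 0 after siNC and 3 and 4 after siSTAMBPL1, and each of its 33 distinct events held one. Both siSTAMBPL1 libraries, and no other, shared 10 of the 33 events. The log2 difference was 3.11 ± 1.03 (SE, n = 2 per group, limma adjusted p = 0.631).

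ARHGEF35-AS1, the near copy on the opposite strand, starts 160397 bases away. It spans chr7:144195321-144299589, so its annotated span overlaps that of OR2A1-AS1. ARHGEF35-AS1 had 13 and 15 events after siNC and 28 and 30 after siSTAMBPL1. The numbers within a group were close and the groups did not overlap. Its PB transcripts numbered 1 and 1 after siNC and 4 and 6 after siSTAMBPL1, and the log2 difference was 1.39 ± 0.29 (SE, n = 2 per group, limma adjusted p = 0.456). Over its events with Ensembl transcripts in both forms alone the log2 difference was -0.66. Summed over both genes, the events numbered 20 and 15 after siNC and 48 in each siSTAMBPL1 library. Counted from their own start sites, 6 of the 38 event positions of OR2A1-AS1 were identical to a position of ARHGEF35-AS1, and 38 of 38 lay within 75 bases of one, a window chosen after the offsets were seen. In the other direction, 42 of the 57 event positions of ARHGEF35-AS1 lay within 75 bases of a position of OR2A1-AS1. The partner ARHGEF35 had 0, 0, 1 and 0 events.

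Among the genes with most events, SLC9A3-AS1 was unlike the rest. It lies opposite SLC9A3, the gene of the sodium and proton exchanger NHE3, and spans chr5:473236-480892. It had 61 and 68 events after siNC and 45 and 47 after siSTAMBPL1, with 58, 60, 51 and 46 PB transcripts. The events of the 2 groups did not overlap, and nearly every event had a PB transcript of its own library, 114 of 115 distinct events in all. Retained introns made up 56 of the 115 and alternative 3′ splice sites 28, while no last exon event was listed. The log2 difference was -0.07 ± 0.26 (SE, n = 2 per group, limma adjusted p = 0.954) after the scaling by library.

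NUTM2A-AS1 had 26 and 43 events after siNC and 35 and 58 after siSTAMBPL1, and last exons made up 66 of its 94 distinct events. NUTM2B-AS1 had 34 and 34 after siNC and 35 and 31 after siSTAMBPL1 with 22 of 59 distinct events in all 4 libraries. Both are named after members of the NUT gene family. For each of the pair the groups overlapped, with adjusted p = 0.765 by limma. FGD5-AS1, a widely studied lncRNA, had 31 and 33 events after siNC and 23 and 21 after siSTAMBPL1. First exons made up 61 of its 65 distinct events, from 19 different first exons, and 11 events were in all 4 libraries. The groups did not overlap, and the limma fit gave a log2 difference of -0.13 ± 0.24 (SE, n = 2 per group, adjusted p = 0.892).

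WARS2-AS1, opposite the gene of the mitochondrial tryptophanyl-tRNA synthetase, had 14 and 22 events after siNC and 27 and 8 after siSTAMBPL1. CCDC18-AS1 had 11 and 26 after siNC and 2 and 15 after siSTAMBPL1. In both genes the groups overlapped. CCDC18-AS1 and its partner CCDC18, a coiled-coil protein gene, were both lowest in siSTAMBPL1 replicate 1, CCDC18 having 23, 19, 0 and 17 events. The annotated spans of this pair do not overlap.

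ZMIZ1-AS1 and ATP6V0E2-AS1 completed the 6 genes with most PB transcripts among those that had them in every library. ZMIZ1-AS1 lies beside ZMIZ1, a transcriptional coactivator gene, and had 2 and 2 events after siNC and 4 and 8 after siSTAMBPL1, with 3, 2, 4 and 4 PB transcripts. ATP6V0E2-AS1, opposite a gene of a vacuolar proton pump subunit, had 6, 20, 7 and 2 events. The groups overlapped in the latter only, and the limma adjusted p was 0.666 and 0.765.

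**Figure D5:**
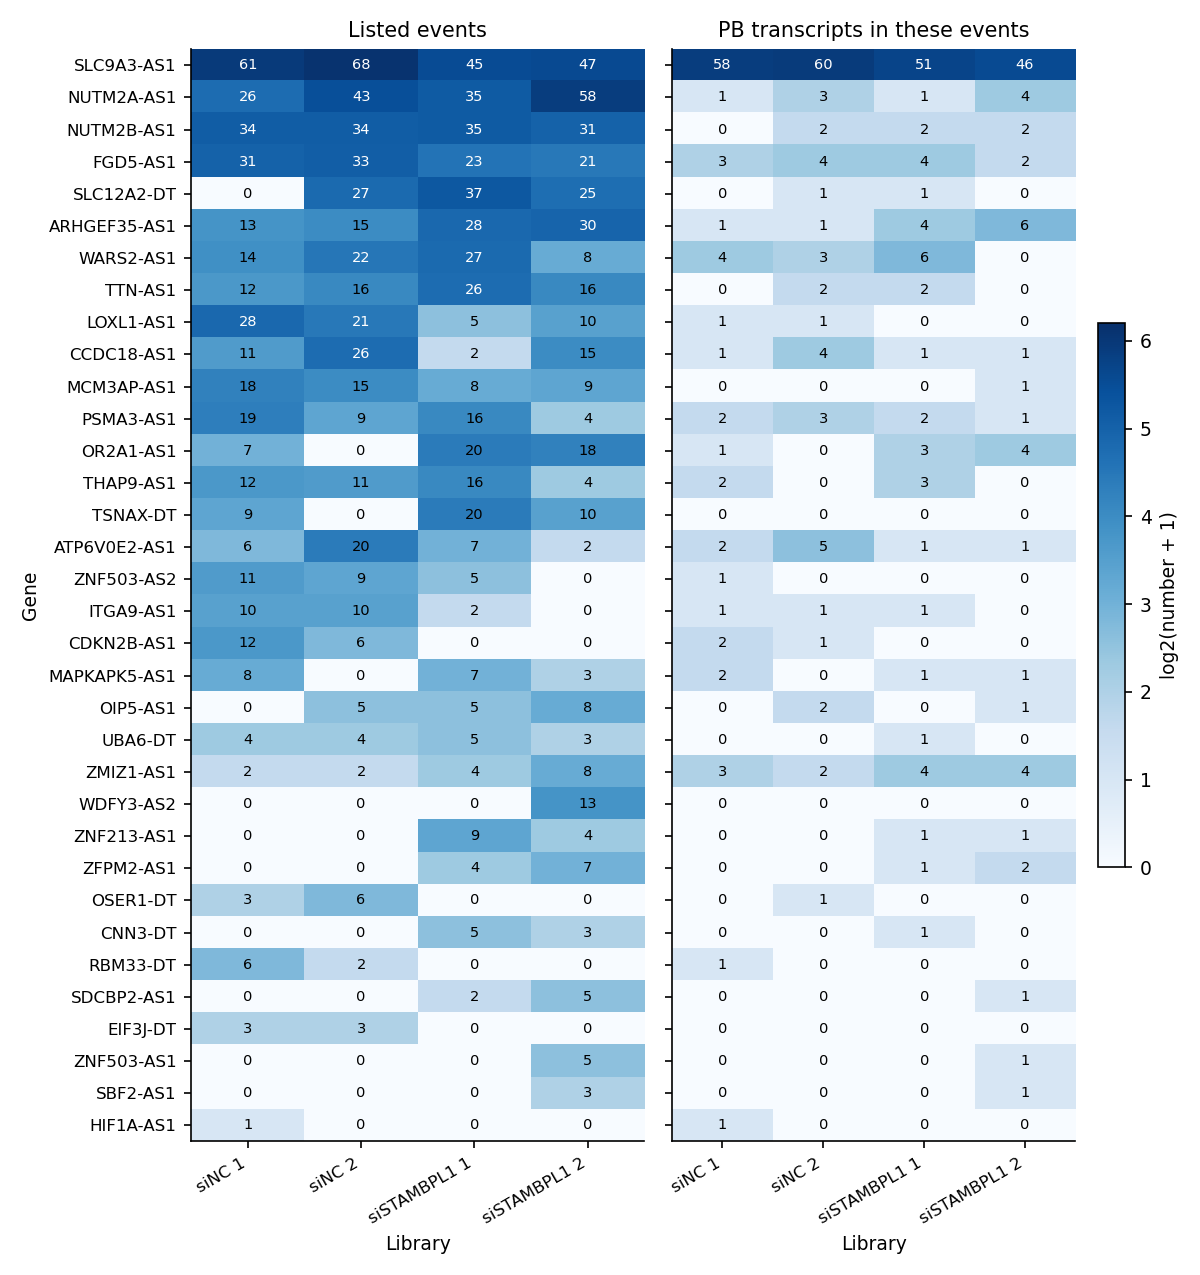
Listed events (left) and PB transcripts in these events (right) of the 34 named antisense and divergent RNA genes (vertical axis) in each library (horizontal axis), with the number in each cell and the colour on a log2(number + 1) scale. SLC9A3-AS1 has 46 to 60 PB transcripts in each library, while no other gene shown has more than 6.

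In the limma fit of events per gene, 136 of the 243 genes had the required 5 events over the 4 libraries and 107 did not. At an adjusted p under 0.05, 0 of the 9933 genes tested were called (0%), and 0 of the 136 were, with a smallest adjusted p of 0.391. At an unadjusted p under 0.05, 10 of the 136 were higher and 5 lower in siSTAMBPL1, beside 293 (2.95%) higher and 434 (4.37%) lower of the 9933 genes tested. Without scaling by library, 7 were higher and 9 lower, beside 186 and 994 over all genes. A gene at 0 in both libraries of a group, such as CDKN2B-AS1 or ZNF213-AS1, passed the filter of 5 events through the other group alone. The filter thus partly fixed such differences, and these counts are descriptions only. The median log2 difference was 0.07 in the 136 genes and 0.05 over all genes, with 72 of the 136 above 0 and 64 below.

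By the listed numbers alone, without scaling, both siSTAMBPL1 libraries stood above both siNC libraries in 16 of the 243 genes (6.58%), beside 4.47% of all genes. They stood below in 25 genes (10.3%), beside 22.5% of all genes. A gene listed in a single library lacked events in a library of each group, so it could not be counted as higher or lower. Such genes made up 39.9% of the 243 and 12.4% of all genes. The shares of the 243 and of all genes are therefore not comparable as they stand. The siSTAMBPL1 totals of these lists were also smaller, and the difference between the shares was not tested.

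Of the genes that stood lower and were in the fit, CDKN2B-AS1 had the largest fitted difference. The genes named here were picked by the size of that difference, so their values and p-values are descriptions only. Those at 0 in both libraries of a group passed the filter of the fit through the other group alone. This RNA, known as ANRIL, lies opposite the gene of the cell cycle inhibitor p15 and has been studied for its part in silencing that locus. It had 12 and 6 events in siNC and was listed at 0 in both siSTAMBPL1 libraries, with 2 and 1 PB transcripts in siNC. The limma adjusted p was 0.404. Skipped exons made up 12 of its 15 distinct events, 3 events were in both siNC libraries, and CDKN2B had 1 event in each library.

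The -DT genes RBM33-DT, OSER1-DT and EIF3J-DT were likewise listed at 0 in both siSTAMBPL1 libraries. Of these, OSER1-DT starts downstream of its partner's start and overlaps the partner's span by 851 bases. RBM33-DT had 6 and 2 events in siNC, OSER1-DT 3 and 6, and EIF3J-DT 3 and 3. The fewest transcripts that account for the events of these genes were 1 or 2 in each siNC library. This is a lower limit, and the number of transcripts present is not known. Their partners encode an RNA-binding protein, a stress-responsive protein and a subunit of translation initiation factor 3, and each partner was listed in all 4 libraries, RBM33 with 10, 9, 10 and 7 events. ITGA9-AS1, which overlaps the integrin gene ITGA9, had 10, 10, 2 and 0 events, and ZNF503-AS2, opposite a zinc finger repressor gene, had 11, 9, 5 and 0. In both genes the siSTAMBPL1 libraries were below the siNC libraries but not both at 0. The limma adjusted p of these 5 genes lay between 0.542 and 0.765.

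Of the genes that stood higher, OR2A1-AS1 had the largest fitted difference and ZNF213-AS1 the next. The limits given for the genes that stood lower hold here too. ZNF213-AS1, beside a zinc finger gene, was listed at 0 in both siNC libraries and had 9 and 4 events in siSTAMBPL1, from 1 PB transcript in each (limma adjusted p = 0.391). Its 13 distinct events were each in 1 library, so the siSTAMBPL1 libraries had none in common. ZFPM2-AS1, a lncRNA studied in hepatocellular carcinoma whose partner is a GATA cofactor gene, was listed at 0 after siNC and had 4 and 7 events in siSTAMBPL1. CNN3-DT was at 0 after siNC and had 5 and 3. Although named -DT, it starts downstream of the start of its partner, a calponin gene, and overlaps the partner's span by 751 bases. SDCBP2-AS1, opposite a syntenin gene, was at 0 after siNC and had 2 and 5. These 3 genes were thus absent from the control lists, with 1 to 3 transcripts enough for the events in each siSTAMBPL1 library.

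TSNAX-DT, which starts 113 bases upstream of the gene of the translin-associated RNA-binding protein, had 9 and 0 events after siNC and 20 and 10 after siSTAMBPL1, with no PB transcript in any library. The lowest siSTAMBPL1 library exceeded the highest siNC library by 1 event. TSNAX had 2 events in each library. The limma adjusted p of ZFPM2-AS1, CNN3-DT, SDCBP2-AS1 and TSNAX-DT lay between 0.431 and 0.765.

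Of a list of 40 widely studied lncRNA genes, 15 had events, 14 of them antisense or divergent RNA genes. Of the 13 tested, 0 were called by limma (smallest adjusted p = 0.631), with 1 higher and none lower where p was under 0.05 unadjusted. Their median log2 difference was 0.82 beside 0.05 over all genes, with 8 above 0 and 5 below. This median cannot be read as a rise of the list. WDFY3-AS2 and ZNF503-AS1 passed the filter through siSTAMBPL1 replicate 2 alone. OIP5-AS1, MAPKAPK5-AS1 and MIR31HG, also above the median, lacked events in a siNC library. LOXL1-AS1, opposite the gene of an elastin cross-linking enzyme, had 28 and 21 events after siNC and 5 and 10 after siSTAMBPL1 (log2 difference -1.25 ± 0.50, SE, n = 2 per group, adjusted p = 0.736). Of its 38 distinct events, 30 were first exon events and 9 were in every library but siSTAMBPL1 replicate 1. MCM3AP-AS1, whose partner acts in mRNA export, had 18, 15, 8 and 9 events, of which 16 of 25 distinct ones were last exon events. These 2 and FGD5-AS1 were the listed lncRNAs whose numbers stood lower in both siSTAMBPL1 libraries. That was 3 of 15 (20.0%), beside 22.5% of all genes, and 0 of the 15 stood higher. The limit given above for genes listed in a single library holds for these shares too.

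TTN-AS1, opposite the titin gene, had 12, 16, 26 and 16 events, and was the 1 gene of the list higher at an unadjusted p under 0.05, with a log2 difference of 0.91 ± 0.30 (SE, n = 2 per group, limma adjusted p = 0.631). Its siSTAMBPL1 replicate 2 equalled siNC replicate 2, so the listed numbers did not separate the groups. OIP5-AS1, a conserved RNA known in mouse for binding a microRNA, had 0, 5, 5 and 8 events. PSMA3-AS1 had 19, 9, 16 and 4, THAP9-AS1 12, 11, 16 and 4, and MAPKAPK5-AS1 8, 0, 7 and 3. The groups overlapped in each of these 4 genes.

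The remaining studied RNAs had few events or were in 1 library alone. WDFY3-AS2 had 13 events in siSTAMBPL1 replicate 2 and 0 elsewhere, with 1 transcript enough for them. ZNF503-AS1 had 5 and SBF2-AS1 3, in that library alone, and HIF1A-AS1 had 1, in siNC replicate 1 alone. UBA6-DT, divergent from a ubiquitin activating enzyme gene, had 4, 4, 5 and 3 events and was present throughout.

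The partners of the 34 named genes gave no call. Of 33 partners, 23 had events and 20 were tested, with 0 called by limma, 0 at an unadjusted p under 0.05, and a smallest adjusted p of 0.765. Of the 23, 17 were listed in every library. HIF1A, an oxygen-regulated transcription factor gene, had 23 and 13 events after siNC and 9 and 8 after siSTAMBPL1. CCDC18 had 23 and 19 after siNC and 0 and 17 after siSTAMBPL1. Both genes stood lower without overlap, as did 22.5% of all genes, and the limma adjusted p of each was 0.765. MAPKAPK5, a kinase gene, had 22, 9, 9 and 5 events, and its groups met at 9.

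A list of 43 genes of transcription termination and nuclear RNA decay, the machinery that removes most divergent RNAs, was set beside these genes. Of the 43, 39 had events and 38 were tested, with 0 called by limma (smallest adjusted p = 0.631) and a median log2 difference of 0.06, beside 0.05 over all genes. At an unadjusted p under 0.05, EXOSC1, an exosome subunit gene, was higher with 4, 4, 7 and 6 events, and CSTF2, a cleavage stimulation factor gene, with 5, 5, 8 and 10. XRN2, the nuclear exonuclease of termination, was lower with 5, 9, 2 and 0 events. No link between these numbers and those of the divergent RNAs was tested.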

How the data were processed

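The files the authors deposited are lists of alternative splicing events, 1 per library, whose columns name the chromosome, gene, event and transcripts, per the file headers. They hold no count of reads or other quantity, so what was counted is listed events. The reads came from full-length cDNA on a PacBio Sequel instrument, per the labels' protocols, and per the submitters' processing notes hg38 was used. An aligner and an event caller were not stated in the sources used here.

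Ensembl genes were named by position and strand in the RefSeq table of GRCh38.p14 when at least 60% of the positions in their events fell in a RefSeq gene widened by 50 bases, these covered at least 20% of it, and the match was 1.5 times better than the next. This gave several genes for 106 identifiers and none for 1032, and 57 claimed a gene already taken. Both identifiers given for the selection matched their symbols. The strand came from the RefSeq start table for 205 of the 243 genes, was taken as opposite to the partner for 17, and was unknown for 21. An event without PB transcript always held an Ensembl transcript whose other reference events were also listed, with 0 exceptions, which is what the fewest transcripts rest on.

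Numbers of events per gene, as log2(events + 1) scaled by library, were tested with limma 3.58.1 in R 4.3.3 over the 9933 genes that had 5 or more events in all, with Benjamini-Hochberg adjustment. The code was first run on simulated numbers drawn independently for each gene and library. Listed events can come in blocks from single transcripts, so that run does not show how the fit behaves on these lists. Values per library were compared by exact permutation tests. Named genes were those of the selection, the 8 with most distinct events, up to 6 with the largest fitted difference in each direction among those without overlap, the 6 with most PB transcripts, and members of the list of studied RNAs, 34 in all, with their partners. The genes, lists and tests were chosen with earlier results of these data known. The comparison with other gene classes, the last exon share, the start regions shown and the window on chromosome 7 were chosen after the values were seen. The alternatives covered the naming, the kind of event, the scaling, the pseudocount, the filter, the replicate numbers and each library left out.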

Additional observations from a re-analysis of the deposited data

How the results depend on the processing

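With 2 libraries a group, no comparison of library values could pass 0.05 under any alternative, and read depth is unknown. No result crossed its test's threshold but the count of calls below. The log2 ratio of events was -0.21, -0.31 to -0.09 with each library left out, and 0.20 after division by the library's total. The difference in genes listed was -21.5, and -28 to -15 with each library left out, but -4.5 for genes with at least 2 events, -10.5 over events with a PB transcript and -11.5 over those with Ensembl transcripts in both forms. The first exon difference was -1.54 points, -2.37 to -0.706 with each library left out, -0.307 over events in at least 2 libraries, -2.63 over events with a PB transcript, and 0.589 points over events with Ensembl transcripts in both forms. The PB share difference was -2.45 points, -5.33 to 0.429 with each library left out, positive without siNC replicate 2, and -0.776 over events in at least 2 libraries. The last exon difference was 0.677 points, -0.381 to 1.74 with each library left out, negative without siNC replicate 1 (-0.0592) or siSTAMBPL1 replicate 2, and -0.140 over events with Ensembl transcripts in both forms. The limma fit called 0 genes, except 11 genes when both forms had to hold Ensembl transcripts (8518 genes tested), and then 0 of 100 antisense and divergent RNA genes were called. The median log2 difference of these genes was 0.07, 0.080 to 0.33 with each library left out, -0.18 without scaling, beside -0.29 over all genes, and 0.29 for PB transcripts per gene. It was also below 0 over events with a PB transcript (-0.0041) or Ensembl transcripts in both forms (-0.039, beside 0.12 over all genes), with no filter (-0.036) and with at least 20 events (-0.011). For ARHGEF35-AS1 the log2 difference was 1.39, and -0.66 over events with Ensembl transcripts in both forms. For SLC9A3-AS1 it was -0.07, -0.27 to 0.12 with each library left out, 0.046 over events with a PB transcript, 0.0087 over those with Ensembl transcripts in both forms and 0.33 for PB transcripts per gene. For OR2A1-AS1 it was 1.68 without siNC replicate 2, and its adjusted p ranged from 0.186 to 0.821. For LOXL1-AS1 it was -1.25, -0.66 without siSTAMBPL1 replicate 1, -1.86 without siSTAMBPL1 replicate 2 and -2.54 over events with a PB transcript. The causes were not tested. The replicate numbers share only a number (correlation of deviations 0.0190), and with a replicate block the limma fit called 0 genes, the smallest adjusted p being 0.821. Removing SLC9A3-AS1, or genes without a strand of their own, was chosen after seeing the data. Naming by Ensembl identifier alone was not run, since the gene table used here pairs no symbol with one.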
